A study of Danio rerio with 8 samples.

Results

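The genes described here lie on the long arm of zebrafish chromosome 4, taken as every gene of chromosome 4 that starts beyond 27 Mb on GRCz11, the zebrafish genome assembly used for counting. The deposited table lists 1653 such genes, and 775 of them (46.9%) passed the count filter (a count above 1 in 4 or more of the 8 libraries) and so could be tested. They are set against the 587 genes tested on the short arm (of 727 listed, 80.7%) and against all 23567 genes tested in the genome. The rule uses position and the count filter alone.

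RNA-seq was performed on whole embryos at 2 dpf (days post-fertilisation). Mutants homozygous for *fmr1* hu2787 were represented by the 4 clutches S2, S4, S5 and S8, and wild type by the 4 clutches A, D, G and L, and values of single clutches are always listed in that order. Each library was made from the pooled embryos of 1 clutch, and each clutch came from its own pair of parents. The parents descended from fish heterozygous for hu2787, and the *mitfa* w2 pigmentation allele was also carried by some of the fish, so clutches may differ in background alleles as well as in the *fmr1* genotype. The tissue is the entire embryo, in which fewer cells of a type and less RNA per cell cannot be told apart.

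The long arm of chromosome 4 is known in zebrafish as a late-replicating, heterochromatic arm, rich in repeats and small structural RNA genes and holding large tandem families of zinc finger and NLR (nucleotide-binding, leucine-rich repeat) genes. The short arm resembles other chromosomes. Heterochromatin is chromatin kept compact and mostly silent by histone methylation, DNA methylation and the proteins that bind these marks. The tip of the long arm is also known to carry a sex-linked region in natural strains of zebrafish.

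The libraries held between 29297000 and 33206000 counts (rounded to 5 digits). The *fmr1* gene (ENSDARG00000037433), which encodes an RNA-binding protein that regulates translation, had 19.8, 23.4, 22.8 and 19.5 CPM (normalised counts per 1e6) in mutants, against 54.2, 49.98, 48.1 and 47.1 CPM in wild type. Its log2 fold change was -1.22 ± 0.11 (SE, adjusted *p* = 0.00551 by edgeR's quasi-likelihood test), so the values followed the genotype labels. The list of markers for whole embryos matched 14 genes by symbol, among them *fmr1* itself and genes of muscle, neurons, periderm, red cells and lens. All 14 were tested, with mean levels from 16.7 to 17907 CPM. The markers *mylpfa* and *hbbe1.1* were not found by symbol, while *col2a1a* and *tyrp1b* each matched a further gene. Over all genes, wild type clutches A and D stood apart from the other 6 on the first principal component, and the results below that rest on them are also given without them.

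Transcripts of the long arm made up a small part of each library. They took 0.208, 0.189, 0.198 and 0.210% of the counts in mutants, against 0.198, 0.204, 0.186 and 0.182% in wild type. The ranges of the genotypes overlapped, and the means were 0.201 ± 0.00971% in mutants and 0.193 ± 0.0102% in wild type (SD, n = 4 each). The short arm, with fewer genes tested, took 1.63 ± 0.0563% in mutants and 1.59 ± 0.0627% in wild type. The mean difference of 0.00875 percentage points on the long arm was smaller than the SD within either genotype.

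**Figure D1:**
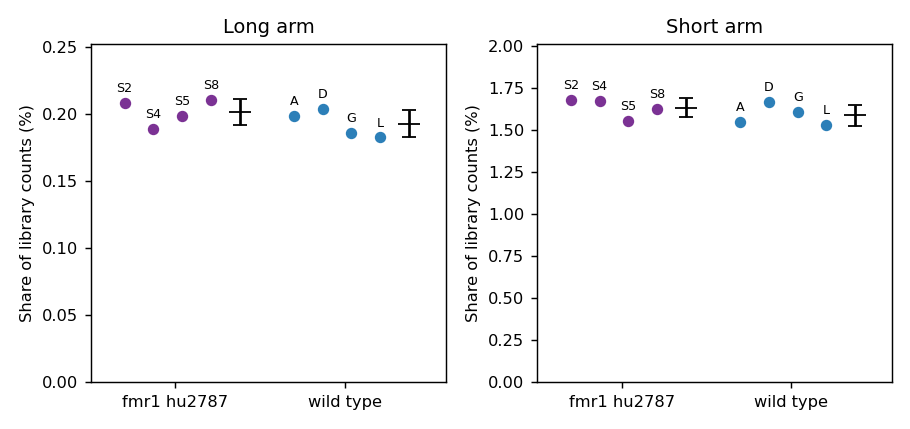
Share of library counts (%) falling in the genes tested on each arm of chromosome 4, with 1 point per clutch and the mean and SD of each genotype beside the points (mutants left, wild type right, n = 4 each). The long arm lies between 0.182 and 0.210% in all 8 libraries, and the genotypes overlap on both arms.

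Most long arm genes were expressed at a low level. The median over genes was 0.188 RPKM (reads per kilobase of transcript per 1e6 counts, averaged over the 8 libraries) on the long arm, 3.58 RPKM on the short arm and 2.82 RPKM over all genes tested. The quartiles of long arm genes were 0.0739 and 0.626 RPKM, both below the lower quartile of the short arm (0.948 RPKM). Only 11 long arm genes (1.42%) exceeded 10 RPKM, compared with 141 short arm genes (24.02%) and 22.2% of all genes tested. Long arm genes were close to those of the short arm in length (median 2249 and 2288 bases) but were annotated with fewer exon entries (median 6 and 13). Levels of repeated genes are uncertain here, since reads that matched near-identical copies, or overlapping genes on the same strand, were not counted.

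Part of the listed genes that could not be tested were small structural RNA genes, such as those of spliceosomal and 5S ribosomal RNA. The long arm listed 477 of them (28.9% of its genes, and 16.4% of all 2901 in the table), against 43 on the short arm, and 1 of the 477 passed the count filter. Such RNAs are known to lack poly-A tails for the most part. Without them, 774 of 1176 long arm genes (65.8%) and 587 of 684 short arm genes (85.8%) were tested. In all, 666 of the 1653 long arm genes had no count in any library. No member had a count above 1 in all 4 clutches of 1 genotype and in none of the other. Members could still pass mainly through the genotype in which they were high. For example, *ms4a17a.16* had 7, 5, 7 and 11 counts in mutants, against 0, 0, 2 and 1 in wild type.

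The level changed along the arm. In windows drawn after the data were seen, the 36 genes tested between 27 and 30 Mb had a median of 2.19 RPKM, nearer to the short arm than to the rest of the long arm. The 497 genes tested between 30 and 70 Mb had a median of 0.151 RPKM, and only 39.7% of the genes listed there could be tested. From 70 Mb to the end, 242 of 301 listed genes (80.4%) were tested, with a median of 0.346 RPKM. This last stretch listed 8 small structural RNA genes, against 411 between 30 and 70 Mb. It also held 7 of the 8 most expressed genes, all beyond 74 Mb.

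**Figure D2:**
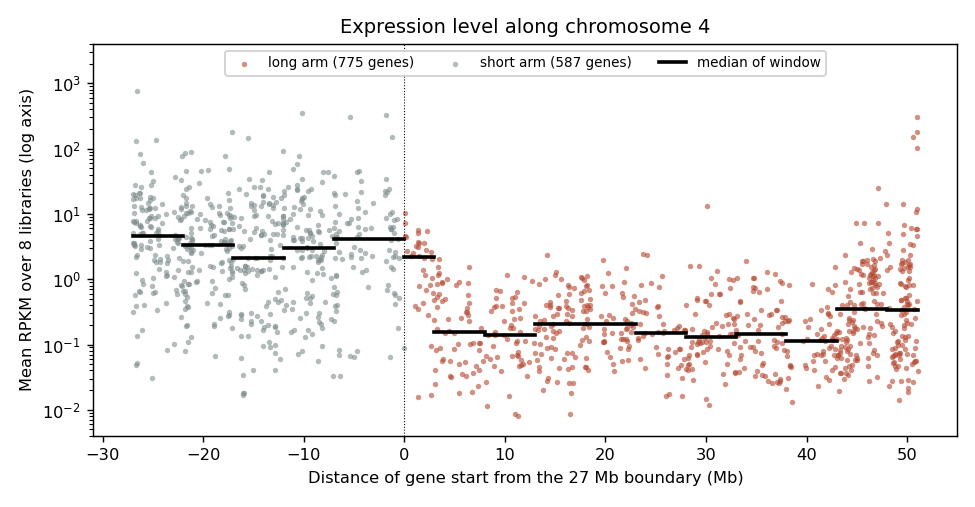
Mean RPKM over the 8 libraries (log axis) of every gene tested on chromosome 4 against the distance of its start from the 27 Mb boundary (short arm left, long arm right), with black bars for the median of each window. The median is 2.19 RPKM up to 30 Mb, lies between 0.114 and 0.209 RPKM in the windows from there to 70 Mb and is 0.351 and 0.342 RPKM in the last 2 windows, where the 4 highest genes sit at the end of the chromosome.

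The genes next to the boundary were unlike in level. CRELD2 (ENSDARG00000029071, chromosome 4, 27081972 to 27099285, minus strand), a chaperone of the endoplasmic reticulum, is the first gene tested inside it. It had 16.3, 17.9, 17.8 and 14.6 CPM in mutants, against 10.3, 12.8, 23.6 and 16.5 CPM in wild type. The last gene tested outside it, *slc6a1l* (26972862 to 27079859), named for its likeness to GABA transporters, averaged 0.824 ± 0.246 CPM in mutants and 0.381 ± 0.185 CPM in wild type. At the edge of the count filter, the member with the fewest counts, ENSDARG00000114030, had 10 counts in all. The gene with the most counts left out, *si:dkey-146c18.2*, had 93 counts, of which 35 came from mutant clutch S4 and 57 from wild type clutch G.

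A few housekeeping genes at the end of the arm held a large part of its counts. CCT2 (ENSDARG00000104674, 78022547 to 78026285), a subunit of the chaperonin that folds actin and tubulin, averaged 305 RPKM, the highest level on the arm. In normalised counts CCT2 had 232, 231, 402 and 286 CPM in mutants, against 292, 281, 329 and 372 CPM in wild type, with S5 above every wild type clutch and S2 and S4 below them all. The symbol *cct2* in lower case belongs to another gene of the table (ENSDARG00000087206, 78008298 to 78009682), which averaged 178 RPKM. The gene *ckap4* (77975221 to 77979432), whose protein anchors the endoplasmic reticulum to microtubules, averaged 103 RPKM. NUP50 (74928675 to 74972270), a nuclear pore protein, averaged 14.4 RPKM but is long, and so ranked high in counts. CCT2, *ckap4* and NUP50 together took 24.5, 26.2, 34.3 and 26.5% of the arm's counts in mutants, against 29.5, 29.7, 31.1 and 33.0% in wild type. The values of the arm are read gene by gene from here on.

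The other genes of highest level were of several kinds. ENSDARG00000115978, a short gene with no symbol (77561226 to 77561679, 149 RPKM), had 49.3, 32.4, 52.0 and 62.3 CPM in mutants, against 123, 77.4, 52.6 and 65.8 CPM in wild type. The mutant values were mostly below the wild type ones, though S8 lay above G, and the log2 fold change was -0.70 ± 0.26 (SE, unadjusted *p* = 0.0222). RAB21 (74087575 to 74109792), a small GTPase of endosomes, was steady at 25.3 RPKM, with a log2 fold change of 0.10 ± 0.11. The remaining genes of this group were *ms4a17a.11* at 14.3 RPKM and ENSDARG00000099355 (provisional symbol) at 13.1 RPKM, the second being the one gene of the group that lay in the low stretch between 30 and 70 Mb (57104534 to 57109978).

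By kind of symbol, the largest group on the arm had provisional names (465 genes tested, median 0.151 RPKM), and a further 114 had no symbol. Genes with a settled name numbered 45 and were expressed at a median of 2.55 RPKM. There were 143 zinc finger genes on the arm, recognised by symbol, out of 378 in the whole table, and 1 on the short arm. Of these, 128 were tested and none was abundant: the median was 0.283 RPKM and the highest 2.35 RPKM. Zinc finger proteins of these families bind DNA through arrays of fingers. As a group they took 105, 93.8, 118 and 98.1 CPM in mutants, against 119, 109, 101 and 100 CPM in wild type. The genotypes overlapped, and no single clutch lay far from the others. Only 2 NLR genes and 3 TRIM genes were recognisable by symbol on the arm, so the size of these families cannot be read from these names.

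Clutches of the same genotype differed more in long arm genes than in short arm genes. Spread is given here as the SD of log2 CPM between clutches of 1 genotype, pooled over both genotypes, for genes of at least 1 CPM. Its median was 0.368 over 225 long arm genes, 0.233 over 466 short arm genes and 0.252 over all such genes. Within mutants alone it was 0.336 on the long arm and 0.225 on the short arm, and within wild type alone it was 0.337 on the long arm and 0.198 on the short arm. A spread above 1, which means clutches commonly differ by more than a doubling, was found for 7 long arm genes (3.11%), 2 short arm genes (0.429%) and 1.72% of all.

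The arms were closer when genes of like level were set side by side. Among genes of 1 to 4 CPM the median spread was 0.444 on the long arm (150 genes), 0.361 on the short arm (93 genes) and 0.409 over all genes. Among genes of 4 to 16 CPM the order was the other way, at 0.228 on the long arm (57 genes) and 0.238 on the short arm (144 genes). At 16 CPM and above the values were 0.204 on the long arm (18 genes) and 0.193 on the short arm (229 genes). Along the arm, the 83 genes of 1 to 4 CPM between 30 and 70 Mb had a median spread of 0.507, while the 56 beyond 70 Mb had 0.366. Neighbouring genes varied together only weakly on either arm: the median correlation of within-genotype deviations between adjacent genes was 0.166 over 224 long arm pairs and 0.115 over 465 short arm pairs, and 12.9% of the long arm pairs and 13.1% of the short arm pairs exceeded 0.7. These pairs share the same 8 libraries, and the values are a description.

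**Figure D3:**
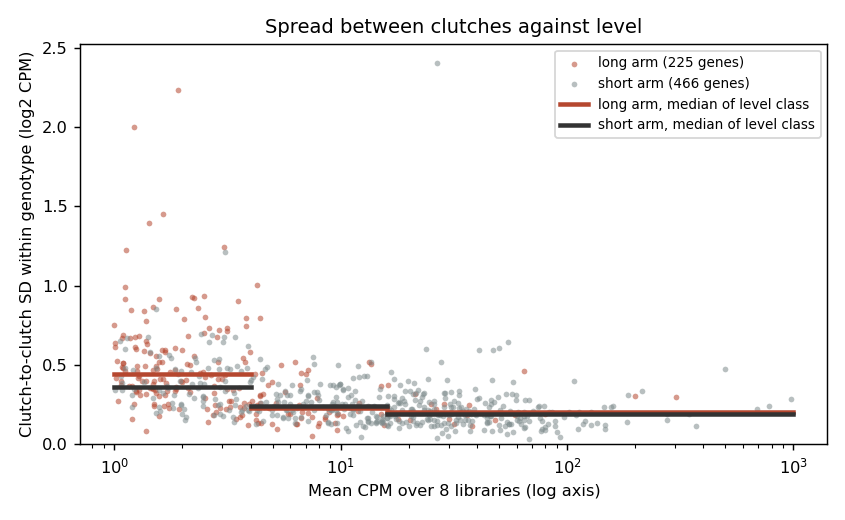
Clutch-to-clutch SD of log2 CPM within genotype (vertical axis) against mean CPM over 8 libraries (log axis) for the genes of at least 1 CPM on the long and short arms, with bars for the median of each level class. The medians are 0.444 on the long arm and 0.361 on the short arm at 1 to 4 CPM and are nearly equal above 4 CPM.

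The genes with the largest spread had few counts in some clutches and many in others, and the high clutches differed between genes. The largest spread (2.23) was that of *si:dkey-159n16.2* (49550966 to 49582758), which had 7, 9, 9 and 245 counts in mutants, against 58, 13, 3 and 115 counts in wild type. High clutches thus occurred in both genotypes. The next, *si:dkey-238k10.2* (77761901 to 78048911, spread 2.00), had 6, 187, 2 and 4 counts in mutants, against 8, 10, 43 and 48 counts in wild type. This gene spans several others on both strands, including CCT2 and *ckap4*, and its spread was 1.06 without mutant clutch S4. The third, *si:dkey-27n6.4* (71578099 to 71610565, spread 1.45), had 31, 16, 27 and 290 counts in mutants, against 9, 21, 14 and 2 counts in wild type. It was high in S8 alone, and its spread was 0.819 without that clutch.

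Another 5 genes followed with spreads from 0.991 to 1.39. The gene *zgc:173714* had 1.81, 0.424, 2.21 and 0.322 CPM in mutants, against 1.64, 1.76, 0.312 and 0.528 CPM in wild type. In each genotype 2 clutches were several fold above the other 2. The gene *si:ch211-212k5.1* was lowest in S4 among mutants (0.364 CPM) and in G among wild type clutches (0.281 CPM), the other 6 clutches having 0.900 CPM or more. Conversely ENSDARG00000097728, which lies near the boundary (29139757 to 29142639), was highest in S4 among mutants (5.85 CPM) and in L among wild type (5.25 CPM). The gene *si:dkey-29j8.3* ranged from 0.128 CPM in A to 3.41 CPM in G, both of them wild type. The last, *si:ch211-76m11.5* (71423591 to 71439440), had 7.98, 2.97, 3.98 and 10.4 CPM in mutants, against 2.57, 3.34, 2.56 and 0.528 CPM in wild type, and its spread was 0.659 without wild type clutch L.

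A wider count of such on and off genes gave 11 members (1.42%) with at most 3 counts in 1 clutch and at least 50 in another. The short arm, with mostly higher levels, had none, and 0.569% of all genes tested met the same limits, without matching for level. They included *znf997*, a zinc finger gene, with 38, 4, 23 and 0 counts in mutants, against 23, 51, 1 and 7 counts in wild type, and *mhc2d4b*, an MHC class II gene of antigen presentation, with 45, 17, 9 and 79 counts in mutants and 12, 20, 20 and 2 counts in wild type. For *znf997* the clutches of each genotype spanned nearly the whole range. The genes whose profile was most like that of *si:dkey-159n16.2* over the 8 libraries were *si:dkey-265e15.2* on the same arm (Pearson's r = 0.925), ENSDARG00000018174 on chromosome 11 (r = 0.899) and *olfm4.1* on chromosome 17 (r = 0.898), all 4 being highest in S8. These matches had the highest correlations among all genes of at least 1 CPM. With only 8 libraries such a search can find high values by chance, so the matches are a description.

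Clutches sorted by their long arm genes did not sort by genotype. On the first principal component of the 225 genes of at least 1 CPM (29.8% of the variance), mutant clutch S4 lay with wild type clutches G and L, and the other mutants lay with wild type clutches A and D. On the second (27.3%), mutant clutch S8 stood apart from all 7 others. The same 3 clutches S4, G and L had the fewest long arm genes with a count (748 in S4, 735 in G and 740 in L), against 752 to 763 in the other 5. The median deviation of long arm genes from their mean over the 8 clutches was 0.14, -0.07, 0.14 and 0.10 on the log2 scale in mutants, against 0.06, 0.01, -0.12 and -0.10 in wild type.

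For the effect of the genotype, no long arm gene passed an adjusted *p* of 0.05 by edgeR's quasi-likelihood test, in which 0.0127% of all genes tested did. The lowest adjusted *p* on the arm was 0.528. At an unadjusted *p* under 0.05, 73 of the 775 genes (9.42%) differed, the same share as over all genes (9.41%), but the direction was uneven. Of these, 60 (7.74%) were higher in mutants, where the share over all genes was 4.22%, and 13 (1.68%) were lower, where the share over all genes was 5.19%. On the short arm 27 (4.60%) were higher and 30 (5.11%) lower. The mutant clutches all lay above the wild type clutches for 32 long arm genes (4.13%, against 1.78% of all genes) and all below for 7 (0.903%, against 2.5% of all genes). The likelihood-ratio test of edgeR, which called 0.132% of all genes, called 1 gene on the arm. DESeq2, which called 37 of all 23567 genes, also called 1 on the arm, a different one.

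The median log2 fold change was 0.114 over the long arm, 0.0185 over the short arm and 0.0204 over all genes, and 470 long arm genes (60.6%) were above 0, compared with 53.1% of all. Fold changes of long arm genes were less precise, with a median SE of 0.482 against 0.193 on the short arm. Low genes over the whole genome leaned the same way, with 325 higher and 66 lower at an unadjusted *p* under 0.05 among the 5285 genes below 1 CPM. On the long arm 38 were higher and 7 lower among 550 such genes, shares close to those of the low genes over the whole genome. At 1 CPM and above, 22 of 225 long arm genes (9.78%) were higher and 6 (2.67%) lower. The shares over all genes of at least 1 CPM were 3.66 and 6.33%. These sets still differed in level: 150 of the 225 long arm genes had 1 to 4 CPM, against 4136 of the 18282 over all genes. The direction was not compared at matched levels within this range.

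Single clutches weighed on these counts. For the 60 genes that were higher in mutants, the highest value lay in S2, S4, S5 and S8 for 9, 7, 5 and 39 genes. Genes picked this way have their highest value in a mutant clutch for the most part by selection. Over all 775 genes, in which wild type clutches could also be highest, the same mutant clutches were highest for 106, 63, 118 and 172. Without S8, 27 long arm genes were higher (3.48%, against 2.82% of all genes) and 10 lower (1.29%, against 2.48% of all genes). Without wild type clutch A, 29 were higher (3.74%, against 2.504% of all genes) and 4 lower (0.516%, against 2.30% of all genes). Without wild type clutch L, 36 were higher (4.65%, against 5.62% of all genes) and 10 lower (1.29%, against 5.69% of all genes). Without mutant clutch S5, 53 were higher (6.84%, against 8.08% of all genes) and 19 lower (2.45%, against 11.45% of all genes). The share of higher genes was thus below that of all genes without L or without S5. Without both A and D, 60 were higher (7.74%, against 3.82% of all genes) and 9 lower (1.16%, against 1.58% of all genes). The part of any single clutch in the uneven direction was not tested beyond these counts.

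The genes that were higher in mutants were most frequent at the end of the arm. Beyond 70 Mb, 36 of 242 genes (14.9%) were higher and 8 (3.31%) lower at an unadjusted *p* under 0.05. Between 30 and 70 Mb, 23 of 497 (4.63%) were higher and 5 (1.01%) lower, and between 27 and 30 Mb 1 of 36 was higher. Over all genes 4.22% were higher and 5.19% lower. Of the 36 genes beyond 70 Mb, 30 had their highest value in mutant clutch S8. Without that clutch 14 genes of this stretch were higher (5.79%, against 2.82% of all genes) and 4 lower (1.65%, against 2.48% of all genes). Without wild type clutch A 18 were higher (7.44%, against 2.504% of all genes) and 2 lower (0.826%, against 2.30% of all genes), and without wild type clutch L 21 were higher (8.68%, against 5.62% of all genes) and 5 lower (2.07%, against 5.69% of all genes). Without both A and D 31 were higher (12.8%, against 3.82% of all genes) and 2 lower (0.826%, against 1.58% of all genes). The count of lower genes there was 3 without S2 (1.24%, against 2.96% of all genes), 14 without S5 (5.79%, against 11.45% of all genes) and 5 without D (2.07%, against 2.77% of all genes). With 1 clutch left out, between 10 (without A) and 23 (without D) genes between 30 and 70 Mb were higher. Over all genes 2.504% were higher without A and 3.055% without D. Without S5 the count was 21, where 8.08% of all genes were higher. These stretches were drawn after the data were seen, and the difference between them was not tested.

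**Figure D4:**
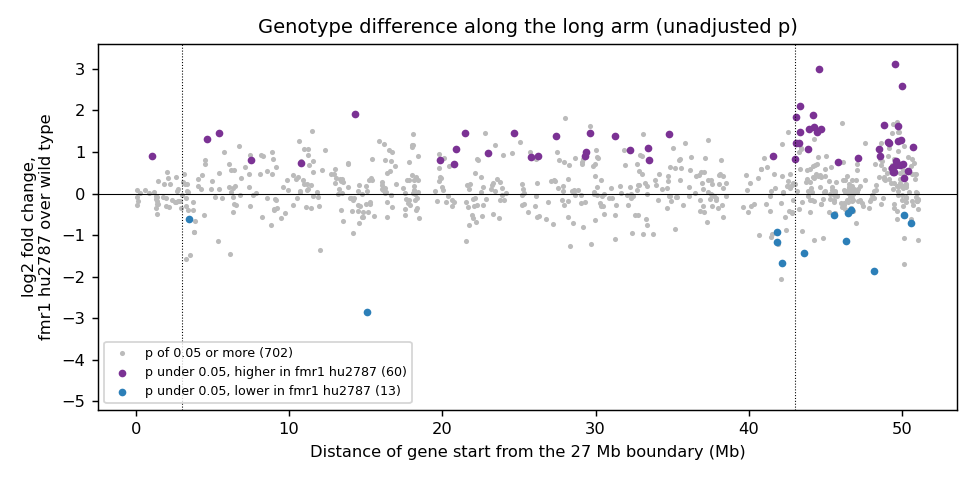
Log2 fold change, mutant over wild type, of the 775 long arm genes against the distance of their start from the 27 Mb boundary, with dotted lines at 30 and 70 Mb and colour for genes with an unadjusted *p* under 0.05. The 36 higher genes beyond 70 Mb crowd the right end, and no gene shown passes an adjusted *p* of 0.05 by edgeR's quasi-likelihood test.

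The gene with the smallest *p* on the arm was *slco1d1* (ENSDARG00000104108, 77389668 to 77432218, minus strand), an organic anion transporter of the cell membrane, which the study had listed from these same samples. It had 23.3, 22.8, 24.1 and 25.7 CPM in mutants, against 17.5, 13.2, 17.4 and 17.4 CPM in wild type. Every mutant clutch was above every wild type clutch, and the means were 23.998 ± 1.283 CPM in mutants and 16.4 ± 2.11 CPM in wild type (SD, n = 4 each). The log2 fold change was 0.55 ± 0.12 (SE, unadjusted *p* = 0.000983). Its adjusted *p* was 0.528 by the quasi-likelihood test, 0.120 by the likelihood-ratio test of edgeR and 0.0145 by DESeq2, so the call depends on the test. The study used the likelihood-ratio test of edgeR with conditional quantile normalisation and fewer genes. That normalisation was not run here.

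The *ms4a17a* genes encode membrane proteins that cross the membrane 4 times, in a family whose mammalian members include the B cell antigen CD20. All 14 genes tested in the genome with an *ms4a* symbol lie here, side by side on the plus strand (76492691 to 76774721, 282 kb), and 5 of them were higher in mutants at an unadjusted *p* under 0.05 and none lower, where the shares over all genes were 4.22% higher and 5.19% lower. Summed over the 14 genes, they took 43.2, 34.1, 46.0 and 74.6 CPM in mutants, against 28.9, 37.3, 36.7 and 36.7 CPM in wild type. Mutant clutch S8 was far above the rest and S4 lay within the wild type range. The gene *ms4a17a.9* had 15.8, 14.9, 14.1 and 29.7 CPM in mutants, against 10.3, 13.04, 11.8 and 11.1 CPM in wild type, with no overlap (log2 fold change 0.69 ± 0.23 (SE), unadjusted *p* = 0.0133). The gene *ms4a17a.11* had 15.1, 8.94, 13.4 and 29.7 CPM in mutants and 9.31, 11.5, 8.62 and 9.70 CPM in wild type, with S4 inside the wild type range (unadjusted *p* = 0.0280). In contrast *ms4a17a.8* had 2.18, 1.82, 4.12 and 0.900 CPM in mutants and 2.38, 3.48, 4.62 and 3.32 CPM in wild type, lowest in the same clutch S8 (unadjusted *p* = 0.150), and *ms4a17a.7* had a log2 fold change of -0.03 ± 0.24 (SE). Without S8, 2 of the 14 genes were higher in mutants at an unadjusted *p* under 0.05, where 2.82% of all genes were. This count was 3 without A (2.504% of all genes), without L (5.62% of all genes) and without both A and D (3.82% of all genes).

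The one long arm gene called by the likelihood-ratio test was *ms4a17a.16* (76509294 to 76517613). It had only 7, 5, 7 and 11 counts in mutants, against 0, 0, 2 and 1 counts in wild type. Among wild type clutches only G was above 1 count, so the gene passed the count filter mainly through the mutants, where it was high. Over the summed counts, 30 in mutants and 3 in wild type, the ratio was 9.87 with an exact 95% interval of 3.07 to 50.5. This interval covers counting error only. It takes every count as an independent molecule, which does not hold for these counts, so it may be too narrow. The adjusted *p* was 0.0269 by the likelihood-ratio test and 0.528 by the quasi-likelihood test. A fitted fold change is not given, since at such counts it depends on the prior count.

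The other genes of smallest *p* whose genotypes did not overlap had provisional symbols and were low. The gene *si:dkey-240n22.2* (76988215 to 77004811) had 0.747, 0.970, 1.66 and 2.44 CPM in mutants, against 0.610, 0.144, 0.156 and 0.0377 CPM in wild type. The lowest mutant was only slightly above the highest wild type clutch, and the log2 fold change was 2.58 ± 0.65 (SE, unadjusted *p* = 0.00232). The gene *si:dkey-3h2.2* (70269825 to 70284207) had 0.919, 0.667, 1.14 and 1.51 CPM in mutants, against 0.482, 0.461, 0.4999 and 0.377 CPM in wild type (unadjusted *p* = 0.00421). It lies within *si:ch211-171l17.4* (70086974 to 70284272) on the same strand. That wider gene had 0.258, 0.303, 0.479 and 0.386 CPM in mutants, against 0.0642, 0.144, 0.0937 and 0.0755 CPM in wild type (unadjusted *p* = 0.00196). Reads shared by both genes were not counted, but their values may still not be separate evidence. Further up the arm, *si:ch211-227p7.5* (56651458 to 56673432) averaged 0.758 ± 0.328 CPM in mutants and 0.271 ± 0.0771 CPM in wild type, and *si:dkey-28k24.2* (48484490 to 48497622) averaged 0.453 ± 0.233 CPM in mutants and 0.162 ± 0.0306 CPM in wild type.

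Among these genes 1 was lower in mutants. The gene *zgc:171604* (73472272 to 73488406) had 4.796, 5.25, 5.71 and 5.79 CPM in mutants, against 6.65, 7.89, 8.06 and 7.21 CPM in wild type. Its spread was 0.125, and the log2 fold change was -0.47 ± 0.15 (SE, unadjusted *p* = 0.0101).

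**Figure D5:**
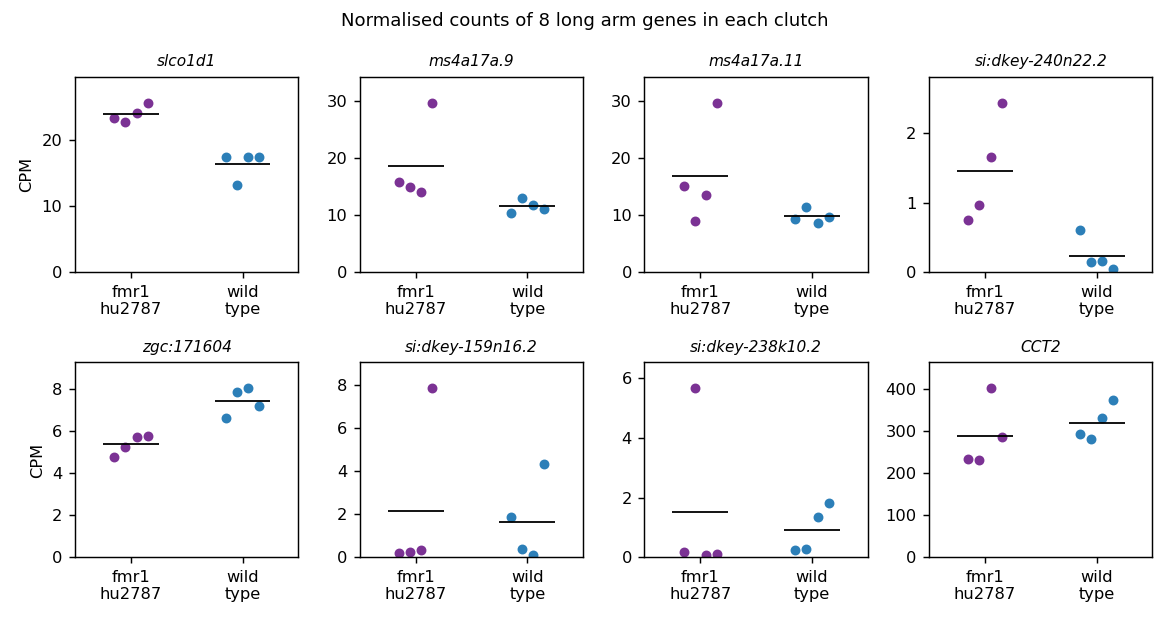
Normalised counts (CPM) of 8 long arm genes, with 1 point per clutch, mutants left and wild type right, and a line at the mean of each genotype (n = 4 each). The genotypes do not overlap for *slco1d1*, *ms4a17a.9*, *si:dkey-240n22.2* and *zgc:171604*, and single clutches stand far above the others for *si:dkey-159n16.2* and *si:dkey-238k10.2*.

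By kind of symbol, the counts at an unadjusted *p* under 0.05 stand beside shares over all genes of 4.22% higher and 5.19% lower, and differences between the kinds were not tested. Of the 128 zinc finger genes none was higher in mutants and 1 was lower, and their median log2 fold change was -0.05. Among the 465 genes with provisional symbols 43 were higher and 10 lower, with a median of 0.19. Zinc finger genes with a provisional symbol could not be recognised, so these kinds may hold members of the same families. Among the 45 genes with a settled name 3 were higher and 1 lower, with a median of -0.04. The kinds also differed over the whole genome, members included. There, 216 of 3828 genes with provisional symbols were higher and 127 lower (median 0.07). Of 357 zinc finger genes 6 were higher and 17 lower (median -0.07), and of 17609 genes with a settled name 668 were higher and 1040 lower (median 0.01).

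Proteins that form and maintain heterochromatin are encoded elsewhere in the genome, and 25 of the 26 looked for were tested. None passed an adjusted *p* of 0.05 by the quasi-likelihood or the likelihood-ratio test. At an unadjusted *p* under 0.05, 9 were lower in mutants and none higher, where 5.19% of all genes were lower and 4.22% higher, and the median log2 fold change of the list was -0.24. The list was not matched to all genes for level. The most negative of the list were HELLS, a remodeller needed for DNA methylation (-0.60), UHRF1, which brings the maintenance methyltransferase to replicated DNA (-0.56), and the methyltransferase *dnmt3ba* (-0.49). Above 0 were both genes with the methyltransferase symbol DNMT3A (0.27 and 0.13), a gene with the symbol SUV39H1 (0.06) and EHMT1 (0.03). The count of lower genes in the list was 4 without mutant clutch S8, 5 without mutant clutch S2 or without wild type clutch A or D, and 1 without both A and D, where between 1.58 and 2.96% of all genes were lower. It was 16 without mutant clutch S5, where 11.45% of all genes were lower. Whether it has any part in the long arm values was not tested. A further list of 14 genes held NLR genes of other chromosomes, such as NOD1, NLRC3 and *ciita*. It also held genes of inflammation and cell death, such as the adaptor *pycard* and the cytokine *il1b*. None of the 14 had an unadjusted *p* under 0.05 by the quasi-likelihood test or an adjusted *p* under 0.05 by the likelihood-ratio test. Their median log2 fold change was 0.14.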

How the data were processed

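Poly-A selected, strand-specific, paired-end RNA-seq reads of 8 clutches were trimmed with AdapterRemoval (2.2.1), mapped by STAR (2.5.3a) to GRCz11 with Ensembl release 94, and counted by featureCounts (1.5.2), all by the authors. The deposited values are whole-number counts per gene, not normalised, where a read needed a mapping quality of 10 or more and had to fall entirely inside exons of a single gene in the right orientation. Reads shared by copies or by overlapping genes were lost, and no option for read pairs was named, so counts are not independent molecules.

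Genes with counts above 1 in 4 or more libraries were tested with edgeR (4.0.16), using TMM normalisation, the quasi-likelihood test and Benjamini-Hochberg adjusted *p* values over all 23567 genes, mutant over wild type. The SE of a log2 fold change was derived as its absolute value divided by the square root of the F statistic of the quasi-likelihood test. It is not an SE given by the fit itself. CPM values were normalised by TMM. For log2 CPM the prior count was 2. RPKM used the deposited gene length. DESeq2 (1.42.0) and limma (3.58.1) were alternatives, in R (4.3.3), with other normalisations, filters and arm boundaries, a replicate block and each clutch left out. The fit was tested on simulated data.

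A name table gave symbols for 28988 of the 32057 genes and 661 of the members, some in capitals. Symbols shared by several genes were replaced by the gene identifier where members shared them. Sequences were not used here. The labels name each clutch as a separate sample of its genotype.

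Named are genes past an adjusted *p* of 0.05 by the quasi-likelihood or likelihood-ratio test, the 8 smallest *p* values among members whose genotypes do not overlap, the 8 highest by RPKM, the 8 of largest spread at 1 CPM or more, the genes next to the boundary and at the edge of the count filter, and the gene listed by the study. Family members (*ms4a*), *znf997*, *mhc2d4b* and the heterochromatin genes named were chosen after seeing their values. The members and lists were chosen with earlier results of these data known.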

Additional observations from a re-analysis of the deposited data

Results flagged for a closer look

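In groups of 4 clutches, a clutch was singled out where its gap to the nearest other clutch divided by the range of the group exceeded Dixon's 95% critical value. Of 102 groups of values looked at, 8 (7.84%) met this. The critical value gives about 1 in 20 groups for independent values that were not selected. Many of these genes were picked for their spread or *p*, and some sums overlap, so the share cannot be set against that rate. Mutant clutch S8 was singled out for *si:dkey-159n16.2* (7.88 CPM), *si:dkey-27n6.4* (9.33 CPM), *ms4a17a.9* (29.7 CPM) and *ms4a17a.3* (0.804 CPM), high in each. Mutant clutch S4 was high for *si:dkey-238k10.2* (5.67 CPM). Wild type clutch D was low for *slco1d1* (13.2 CPM), and the other 3 wild type clutches lay between 17.4 and 17.5 CPM. Wild type clutch A was low for the summed *ms4a* genes (28.9 CPM) and high for the summed genes between 30 and 70 Mb (336 CPM).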

How the results depend on the processing

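No long arm gene passed an adjusted *p* of 0.05 under any alternative except 1 by the likelihood-ratio test (*ms4a17a.16*) and 1 by DESeq2 (*slco1d1*). No log2 fold change reversed among the genes named for their *p*. For the genes named for level or spread, reversal was not looked at. The labels number the clutches of each genotype from 1 to 4 and do not say that equal numbers pair clutches. Deviations of same-numbered clutches correlated at 0.33, -0.20, 0.02 and 0.25, and so few values cannot decide whether the numbers pair them. With the replicate number as a block, 46 genes had an unadjusted *p* under 0.05, 38 higher (4.90%, against 4.27% of all genes) and 8 lower (1.03%, against 5.16%), where the fit without it gave 73, 60 and 13, and no member passed the adjusted threshold. With 1 clutch removed at a time, the same counts ran from 33 to 76 in all, from 27 to 63 higher and from 4 to 19 lower. Over all genes the count ran from 1132 without A to 4601 without S5. The share of all genes that were higher ran from 2.504 to 8.08%, and the share lower from 2.30 to 11.45%. Without S5, 6.84% of members were higher and 2.45% lower, both below the shares of all genes. Members whose genotypes did not overlap ran from 47 to 87, against 39. The share of all genes that did not overlap then ran from 5.67 to 19.18%, against 4.28%, and it exceeded that of the members without S5 (19.18% of all, 9.03% of members) and without L (9.27 and 7.61%). With 1 CPM required in 4 libraries, 228 members were tested, of which 27 had an unadjusted *p* under 0.05. Of these, 21 were higher (9.21%, against 4.32% of all genes) and 6 lower (2.63%, against 5.15%). Genotypes did not overlap for 12 members (5.26%, against 4.365% of all genes). With filterByExpr 47 were higher (10.28%, against 4.15% of all genes) and 8 lower (1.75%, against 5.485%). Fewer genes were tested in both. Leaving out both A and D, added after seeing the data as was a fit with bias-adjusted deviances, gave 142 genes that did not overlap (18.3%, against 15.1% of all genes) and a median log2 fold change of 0.215. The median spread was higher on the long arm by 0.134, by 0.292 over all genes tested, by 0.0933 as biological coefficient of variation and by 0.102 to 0.151 with a clutch left out. Low counts limit most members.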
